A study of Mus musculus with 2 samples.

Results

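The collagen genes of the newborn mouse thymus were taken as all protein-coding genes whose GENCODE M21 symbol is Col, a number, the letter a and a number. There were 44 such genes among 21474 measured protein-coding genes and 43346 measured genes in all, and each was measured in both libraries. The tissue was the thymus, the organ in which T cells mature, at postnatal day 0 in mice of strain B6NCrl. Both lobes of a pup gave 1 library of total RNA, and the 2 pups came from 1 pregnant female, so the data form 1 group of 2 littermates with no treatment, genotype or other tissue to compare. Sex was not collected. Libraries were made from 10 ng of RNA, and held 39046411 expected counts in replicate 1 and 41576822 in replicate 2.

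Collagens are secreted or membrane proteins of 3 chains wound into a triple helix, in which glycine must recur regularly because it alone fits the centre of the helix. Fibrillar collagens form the cables of connective tissue, network collagens form the sheets of basement membranes, and beaded-filament collagens link cells to the surrounding matrix. In the thymus such matrix lies in the capsule and septa, around blood vessels and beneath the outer epithelium.

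The repeat that gives a collagen its helix could be read in the coding sequence as a glycine codon (GGN, N being any base) that opens each group of 3 codons, called a triplet here. In the longest annotated coding sequence of every gene, all 44 collagens held an uninterrupted run of at least 20 such triplets, against 20 other genes among 21562 protein-coding genes with a coding sequence. The longest run had a median of 58.5 triplets in the collagens and 2 in the other genes. The following stretches show how the run continues in a fibrillar collagen and where it stops in basement membrane and beaded-filament chains. They are spliced coding sequence on GRCm38, 5′ to 3′ on the coding strand, and capitals mark the GG of each glycine codon that opens a triplet of the longest run. They lie at chr1:45323762-45325383 (plus strand, 2 exons) in Col3a1, chr8:11244519-11245066 (minus strand, 2 exons) in Col4a1, chr8:11437595-11437654 (plus strand, 1 exon) in Col4a2 and chr10:76714441-76714708 (minus strand, 2 exons) in Col6a1.
Col3a1, start of the run: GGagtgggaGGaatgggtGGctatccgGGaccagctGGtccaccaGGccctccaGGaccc
Col4a1, end of the run: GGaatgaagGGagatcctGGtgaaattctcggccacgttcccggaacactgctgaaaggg
Col4a2, end of the run: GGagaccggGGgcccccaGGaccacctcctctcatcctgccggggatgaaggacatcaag
Col6a1, end of the run: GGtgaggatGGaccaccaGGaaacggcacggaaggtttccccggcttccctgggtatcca
The Col3a1 stretch opens a run of 344 triplets, the longest of the family, and each of its triplets opens with a glycine codon. In the other 3 stretches the run ends after the third capital pair and the sequence goes on out of phase.

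The length of this run separated the fibrillar class from the others. All 11 fibrillar genes held runs of 216 to 344 triplets, with Col1a2 at 339 and Col1a1 at 338 next to Col3a1, and Col27a1 and Col24a1 lowest at 217 and 216. The longest run outside the class was 113 triplets, in each of the fibril-associated genes Col22a1, Col9a1, Col9a2 and Col9a3. Basement membrane chains held 39 to 66 and were interrupted often: Col4a1 had a longest run of 40 but 22 runs of at least 5 triplets. Beaded-filament chains held 37 to 87 (87 in both Col6a1 and Col6a2), transmembrane chains 40 to 56, hexagonal network chains 60 or 61 and both multiplexins 30. Anchoring and other collagens held 23 to 75, from Col26a1, the shortest of the family, to Col7a1.

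**Figure D1:**
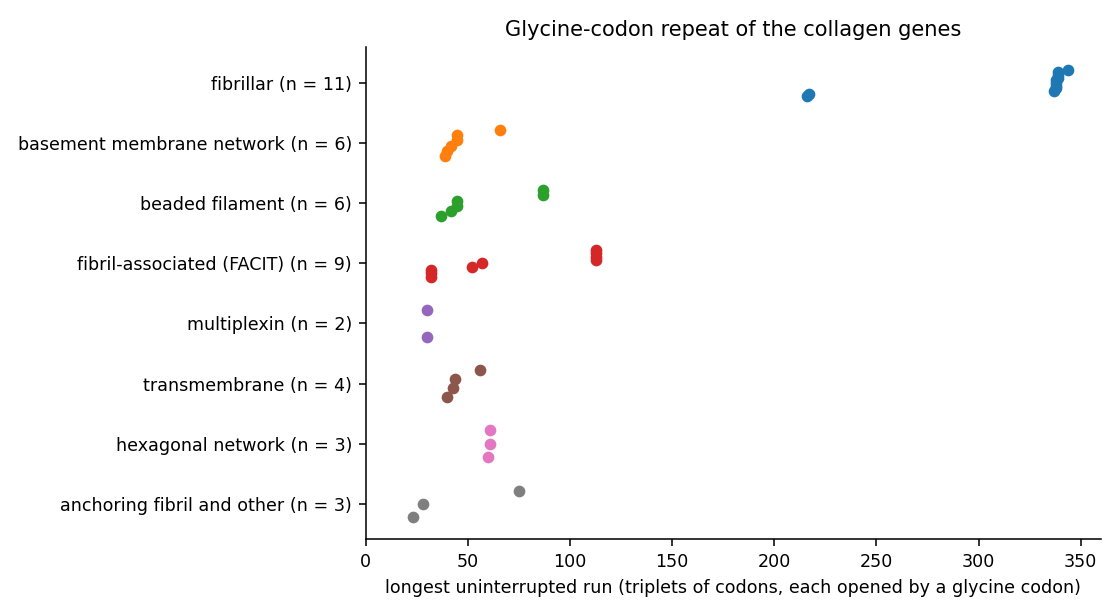
Longest uninterrupted run of glycine-codon triplets in the longest coding sequence of each of the 44 collagen genes. The x axis counts triplets, each row is a class and each point a gene; the 11 fibrillar genes lie at 216 to 344 and all other classes at 113 or below.

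In the RNA, 20 of the 44 collagen genes (45.5%) were detected, which here means a TPM of at least 1 in both libraries. TPM is abundance per transcript length, relative to the whole library, so it can be compared between genes. Of all protein-coding genes 57.3% were detected by the same rule. Col11a2 (1.24 and 0.91 TPM in replicates 1 and 2) and Col19a1 (1.14 and 0.92 TPM) passed in 1 library only, and 22 genes were below 1 TPM in both. None had 0 counts, and the lowest count was 1, for Col28a1 in replicate 1. The family held 0.0523% and 0.0553% of protein-coding TPM, a mean of 0.0538% ± 0.00209 (SD, n = 2). It was uneven: 9 genes with a mean of at least 10 TPM held 89.2% ± 1.14 of the collagen TPM, and the median gene stood at 0.93 TPM. In bulk tissue, fewer cells of a type and less RNA per cell cannot be told apart.

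**Figure D2:**
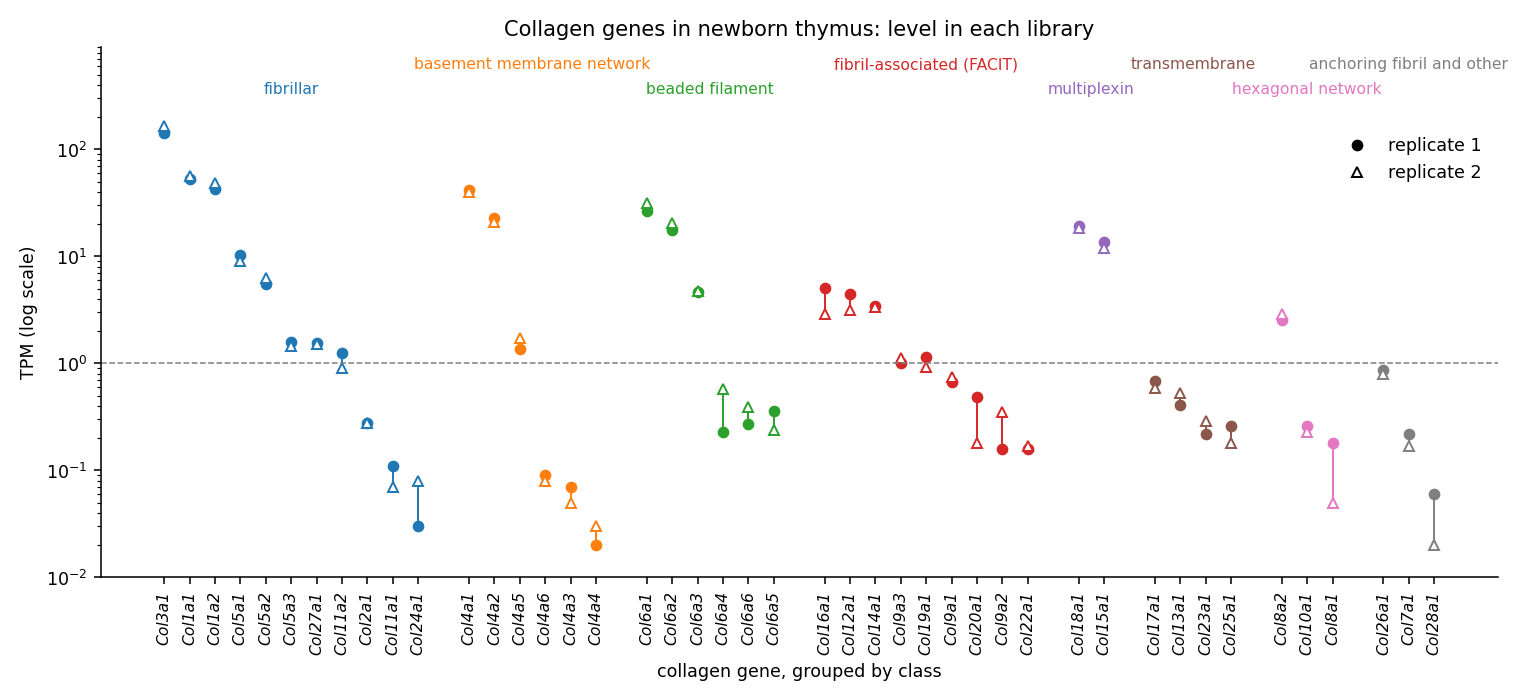
TPM of each of the 44 collagen genes on a log axis, grouped by class, with a filled circle for replicate 1 and an open triangle for replicate 2. The dashed line marks 1 TPM; Col3a1 is highest at 143.68 and 165.23 TPM, and the classes without a gene above the line in both libraries are the transmembrane and the anchoring and other collagens.

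Fibrillar collagens held 61.65% ± 1.97 of the collagen TPM. Col3a1 (ENSMUSG00000026043, chromosome 1, 45311538 to 45349706), the chain of type III collagen of soft and vascular tissue, had 143.68 TPM in replicate 1 and 165.23 in replicate 2, or 154 ± 15.2 TPM. It was the only collagen above 100 TPM, ranked 992 among protein-coding genes and held 34.6% ± 1.77 of the collagen TPM. The chains of type I collagen, the main protein of tendon, skin and bone, came next. Col1a1 (ENSMUSG00000001506, chromosome 11, 94936224 to 94953042) had 52.94 and 57.06 TPM, and Col1a2 (ENSMUSG00000029661, chromosome 6, 4504814 to 4541544) had 42.47 and 48.88 TPM. The replicate ranges of these 3 genes did not overlap one another, and each was higher in replicate 2.

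The type I protein is built mainly from 2 alpha-1 chains and 1 alpha-2 chain, and the ratio of Col1a1 to Col1a2 TPM was 1.25 and 1.17. Type V chains, which nucleate and limit the width of fibrils, were lower. Col5a1 had 10.43 and 8.99 TPM, Col5a2 had 5.49 and 6.26 TPM, and Col5a3 had 1.6 and 1.47 TPM. The order Col5a1, Col5a2, Col5a3 was the same in both libraries, although the ratio of Col5a1 to Col5a2 was 1.90 in replicate 1 and 1.44 in replicate 2. Col27a1, a fibrillar gene best known from cartilage, was at 1.54 and 1.51 TPM.

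Fibrillar chains known from cartilage differed in level. Besides Col27a1, Col11a2 of type XI collagen reached 1 TPM in replicate 1, with 1.24 and 0.91 TPM from 162 and 139 counts. Col2a1, the main cartilage collagen, had 0.28 TPM in both libraries, from 40 and 34 counts. Col11a1, the other type XI chain here, had 0.11 and 0.07 TPM. Col24a1, the last fibrillar gene, had 3 and 9 counts. Other cartilage genes divided: of 8 markers, 3 were detected, against 57.3% of all protein-coding genes. These were Cnmd (9.11 and 11.22 TPM), the transcription factor Sox9 (4.92 and 5.97 TPM), which is not limited to cartilage, and the matrix gene Comp (1.18 and 1.28 TPM). The matrix genes Acan (0.07 and 0.17 TPM), Matn1 (0.39 and 0.36 TPM) and Hapln1 (0.10 TPM in both) were below 1. The summed TPM of the 8 was 16.18 and 19.31, and none had 0 counts. The hexagonal collagen of growth-plate cartilage, Col10a1, was at 0.26 and 0.23 TPM. Its exons share 18 bases with the oppositely oriented gene Nt5dc1 (25.29 and 21.74 TPM), and reads of such overlaps cannot be divided without knowledge of strand.

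Basement membrane chains held 14.5% ± 1.30 of the collagen TPM, nearly all of it in 1 pair of genes. Col4a1 (ENSMUSG00000031502, chromosome 8, 11198423 to 11312826) had 42.04 and 39.72 TPM, and Col4a2 (ENSMUSG00000031503, chromosome 8, 11312805 to 11449287) had 22.92 and 21.05 TPM. These chains form the network common to most basement membranes, usually as 2 alpha-1 chains with 1 alpha-2 chain. The ratio of Col4a1 to Col4a2 TPM was 1.83 and 1.89, and both genes were slightly lower in replicate 2 on the TPM scale.

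The 6 type IV genes lie as head-to-head pairs, whose starts face away from each other. Col4a1 and Col4a2 overlap by 22 bases at their starts, Col4a4 and Col4a3 lie 71 bases apart on chromosome 1, and Col4a6 and Col4a5 lie 1308 bases apart on the X chromosome. The pairs did not stand at like levels. Col4a5 was at 1.36 and 1.73 TPM against 0.09 and 0.08 TPM for its neighbour Col4a6, a ratio of 15.1 and 21.6. Col4a3 (0.07 and 0.05 TPM) and Col4a4 (0.02 and 0.03 TPM), which with Col4a5 form the network of the kidney filter, were the lowest of the class. The exons of Col4a3 share 563 bases with the oppositely oriented C430014B12Rik, which had 17.73 and 14.69 counts against 18.43 and 13.09 for Col4a3, so the division of reads between them is uncertain.

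Beaded-filament chains held 12.1% ± 0.823 of the collagen TPM. Col6a1 (ENSMUSG00000001119, chromosome 10, 76708792 to 76726168) had 26.33 and 31.92 TPM, Col6a2 had 17.75 and 20.46 TPM, and Col6a3 had 4.62 and 4.78 TPM. These are the 3 chains of classical type VI collagen, which surrounds many cells of connective tissue. Col6a1 exceeded Col6a2 by a factor of 1.48 and 1.56, and the ranges of the 3 genes did not overlap. The later-described chains Col6a4 (0.23 and 0.58 TPM), Col6a5 (0.36 and 0.24 TPM) and Col6a6 (0.27 and 0.39 TPM), which lie in a row on chromosome 9, were all below 1 TPM. Their levels overlapped one another between libraries.

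Col18a1 and Col15a1, the multiplexins, are basement membrane collagens whose last part is released as a soluble fragment (endostatin in Col18a1). They held 7.13% ± 0.702 of the collagen TPM. Col18a1 (chromosome 10, 77052178 to 77166548) had 19.14 and 18.55 TPM and Col15a1 13.75 and 12.05 TPM, and both were detected, around a class median of 15.9 TPM. Fibril-associated collagens, which decorate the surface of fibrils, were lower, at 3.34% ± 0.748 of the collagen TPM, with 4 of 9 detected. Col16a1 had 5.11 and 2.92 TPM, Col12a1 4.5 and 3.19 TPM and Col14a1 3.46 and 3.37 TPM. Col9a3 (1.01 and 1.13 TPM) was the only chain of type IX collagen above 1 TPM, a call lost when counts were taken per longest transcript (0.68 and 0.65), with Col9a1 at 0.67 and 0.75 TPM and Col9a2 at 0.16 and 0.35 TPM, and it shares 234 exon bases with the opposite gene Tcfl5 (1.05 and 7.8 counts).

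Of the 3 hexagonal network genes only Col8a2 was detected, at 2.54 and 2.93 TPM, while Col8a1, its partner in vessel walls, had 0.18 and 0.05 TPM. No transmembrane collagen was detected: Col17a1, which anchors basal epithelial cells, had 0.68 and 0.59 TPM, Col13a1 0.41 and 0.53 TPM, Col23a1 0.22 and 0.29 TPM and Col25a1 0.26 and 0.18 TPM. Col7a1, the anchoring fibril of skin, was at 0.22 and 0.17 TPM, Col26a1 at 0.87 and 0.79 TPM and Col28a1 at 0.06 and 0.02 TPM. The remaining low genes were Col20a1 at 0.49 and 0.18 TPM and Col22a1 at 0.16 and 0.17 TPM. The exons of Col20a1 share 79 bases with BX649560.1 on the same strand, which had 93 counts in both libraries against 18 and 13 for Col20a1, so its level is uncertain. In order of mean TPM the 44 genes made 43 neighbouring pairs, and the 2-library ranges overlapped in 26 of them, but in 8 of 21 pairs among genes with a mean of at least 1 TPM.

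Where the genes begin was examined in RefSeq's 250 bases before the annotated start, which matched 35 of the 44 genes in 38 windows of GRCm38.p6. Genes without an entry were Col12a1, Col14a1, Col1a1, Col22a1, Col26a1, Col2a1, Col4a3, Col5a2 and Col9a3. The windows of Col3a1, the highest gene, and Col18a1, whose 2 starts are described below, are printed on the gene's strand, with motif letters in capitals. They are chr1:45311288-45311537 (plus strand) and chr10:77166549-77166780 (minus strand), the latter without the bases that GENCODE places in the transcript.
Col3a1 upstream: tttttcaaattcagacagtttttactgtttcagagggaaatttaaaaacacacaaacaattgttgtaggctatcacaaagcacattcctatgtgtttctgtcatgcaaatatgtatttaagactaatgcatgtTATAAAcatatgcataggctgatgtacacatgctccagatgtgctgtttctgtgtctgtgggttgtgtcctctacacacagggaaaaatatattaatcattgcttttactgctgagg
Col18a1 upstream: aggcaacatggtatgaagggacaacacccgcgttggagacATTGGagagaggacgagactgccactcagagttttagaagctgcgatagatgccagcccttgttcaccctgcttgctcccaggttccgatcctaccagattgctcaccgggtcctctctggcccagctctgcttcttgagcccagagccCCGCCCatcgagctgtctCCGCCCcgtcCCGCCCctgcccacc
Col3a1 held TATAAA, 117 bases before the end of the stretch, and Col18a1 held ATTGG once and CCGCCC 3 times. Over both strands, TATAAA or TTTATA was in 5 of 38 collagen windows (13.2%) and in 12.4% of 32851 windows of the same length. CCAAT or ATTGG was in 13 of 38 (34.2%) against 33.8%, and GGGCGG or CCGCCC in 22 of 38 (57.9%) against 32.7%. These matches are letters only and were not tested.

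Transcript assignments showed which form of each collagen carried the level. Among 22 genes with a mean TPM of at least 1 and at least 2 annotated transcripts, 20 shared their leading transcript between the pups, and 8 gave it over 90% of their TPM in both: Col1a1, Col1a2, Col4a1, Col4a2, Col5a2, Col5a3, Col6a1 and Col6a2. Col3a1-201 (5564 nt) held 74.02% and 72.43% of Col3a1 TPM, and the short Col3a1-205 (737 nt) held 24.54% and 26.14% from 663.29 and 876.87 counts of 17843 and 21727. Col18a1 used 2 starts on the annotation: Col18a1-202, from the start at 77166548, held 69.8% and 71.18%, and Col18a1-203 (4791 nt), from a start inside the gene at 77113705, held 27.04% and 26.67%. Both shares differed little between the pups.

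A short transcript takes few reads to reach a high TPM, and this weighed on some collagens. Col6a3-206, an annotated retained intron of 646 nt, held 58.95% and 56.48% of Col6a3 TPM from 43.95 and 47.02 counts, whereas the coding Col6a3-202 (9001 nt) held 485.94 and 575.95 counts. Col15a1-203 (1755 nt) held 59.99% and 55.68% of Col15a1 TPM, and the full-length Col15a1-202 (5172 nt) 15.19% and 23.55%. With counts divided by the length of the longest annotated transcript, the deposited level was more than 1.5 times higher in 6 of 22 genes: Col15a1, Col6a3, Col16a1, Col12a1, Col27a1 and Col9a3. Col15a1 then stood at 5.71 and 5.68, Col6a3 at 1.82 and 1.98, and Col3a1 at 110.7 and 125 on the same scale. The order of the 8 highest genes was the same on both scales, and 18 genes were detected instead of 20, without Col9a3 and Col27a1 (0.88 and 0.71).

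**Figure D3:**
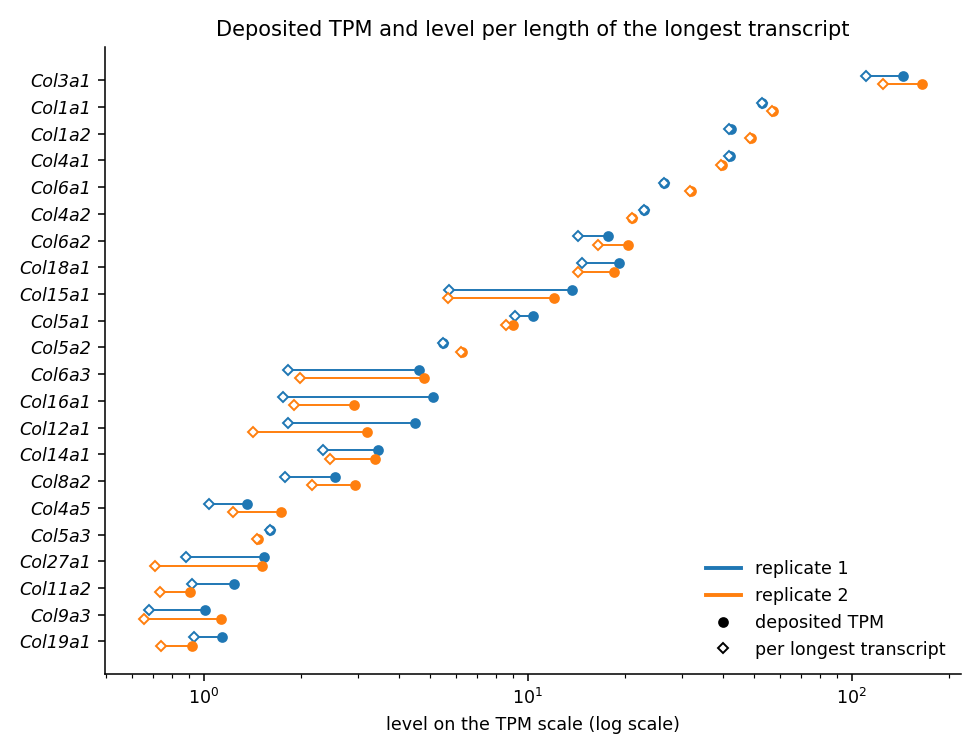
Deposited TPM (filled circles) and level per length of the longest annotated transcript (open diamonds) for collagen genes with a mean TPM of at least 1, on a log axis, with replicate 1 in blue and replicate 2 in orange. The 2 scales nearly coincide for Col1a1, Col4a1, Col4a2 and Col6a1 and part by a factor of 2.27 for Col15a1 and 2.47 for Col6a3.

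Col16a1 shows how this reaches the comparison of pups. Its TPM was 5.11 and 2.92, lower in replicate 2, while its counts were 264 and 308. Col16a1-207, a noncoding transcript of 833 nt, held 44.36% of its TPM in replicate 1 and 30.33% in replicate 2. Per longest transcript Col16a1 stood at 1.75 and 1.90. TPM and scaled counts pointed in opposite directions for 7 of the 41 genes with a mean count of at least 10. These were Col18a1, Col15a1, Col16a1, Col14a1, Col9a3, Col6a5 and Col4a6. The 2 scales also differed where the deposited gene length was the same in both libraries. Col4a2, at 6450 in both, had log2 ratios of -0.12 by TPM and -0.08 by scaled counts. Col18a1, at 4885 and 4923.6, had -0.05 and 0.01. How much of each opposite direction came from transcript length was not tested. The difference between the pups was taken from scaled counts.

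Among the 9 genes with a mean of at least 10 TPM, 7 had more scaled counts in replicate 2, and Col4a1 and Col4a2 had fewer. Of all genes with a mean count of at least 10, 51.4% had more. Scaled by total counts, 6 of the 9 were higher, as Col18a1 changed sides, against 46.7% of all genes. With counts scaled by the TMM method, log2 ratios of replicate 2 over replicate 1 were 0.22 for Col3a1 (17843 and 21727 counts, counting SE 0.0146), 0.15 for Col1a1 (9103 and 10557 counts) and 0.26 for Col1a2 (6472 and 8121 counts). Col6a1 had the largest ratio of the 9 leading genes, 0.32, from 3107 and 4048 counts (counting SE 0.0344), and Col6a2 had 0.25. Col4a1 was at -0.04 (8044 and 8196 counts, counting SE 0.0226), Col4a2 at -0.08 (4292 and 4253 counts), Col18a1 at 0.01 and Col15a1 at 0.04. These are differences between 2 libraries with no replicate check, and no p-value was computed. The spread over 17258 genes, a biological coefficient of variation of 11.7%, is of the same order as most of them. Where libraries were scaled by the spike-in RNA instead, the median log2 ratio of all genes moved from 0.01 to 0.70 and all 9 leading genes, Col4a1 (0.65) and Col4a2 (0.61) included, were higher in replicate 2, so directions hold relative to the bulk of genes only.

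Over the family, 41 genes had a mean count of at least 10, and Col24a1, Col28a1 and Col4a4 did not. Of the 41, 22 (53.7%) were higher in replicate 2, against 51.4% of all 17986 genes above the same minimum, and the median log2 ratio was 0.02 against 0.01. Among protein-coding genes above it, 54.1% were higher, at a median of 0.02. By class, 4 of 10 fibrillar, 2 of 5 basement membrane, 6 of 6 beaded-filament, 5 of 9 fibril-associated and 2 of 2 multiplexin genes were higher in replicate 2, as were 2 of 4 transmembrane, 1 of 3 hexagonal and 0 of 2 anchoring and other genes. Class medians in that order were -0.06, -0.04, 0.30, 0.05, 0.02, -0.12, -0.13 and -0.29. The fibrillar median thus lay on the other side of 0 from Col3a1, Col1a1 and Col1a2, and Col5a1 (2246.95 and 2274.97 counts) was at -0.05. Of 27 genes with a mean count of at least 50, none differed over 2-fold, against 0.198% of all 14155 such genes higher and 1.16% lower in replicate 2. Of 12883 protein-coding genes at that minimum, 17 were over 2-fold higher and 52 over 2-fold lower. The largest difference among the 27 collagen genes was that of Col17a1, with 109 and 67 counts and a log2 ratio of -0.76 (counting SE 0.223). Below that minimum the ratios came from few counts: Col9a2 had 7 and 25 counts (1.70), Col8a1 27 and 8 counts (-1.76) and Col6a4 33 and 64 counts (0.88).

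**Figure D4:**
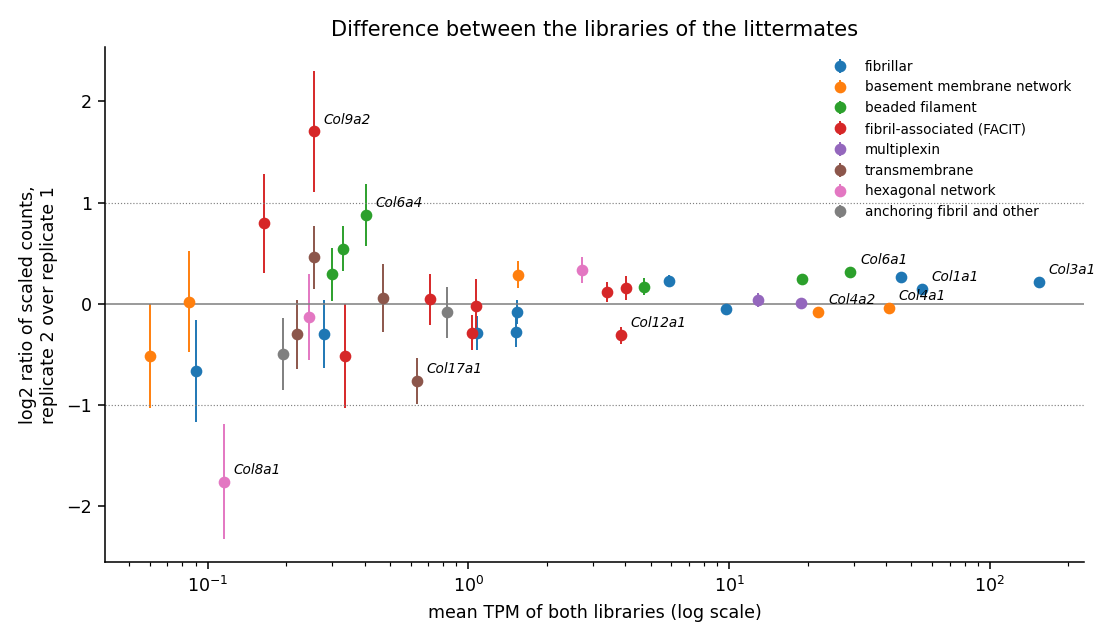
Log2 ratio of scaled counts, replicate 2 over replicate 1, against mean TPM on a log axis for the 41 collagen genes with a mean count of at least 10, coloured by class. Bars are the counting standard error of the 2 counts; dotted lines mark 2-fold, and the genes of highest TPM lie between -0.08 and 0.32 while low genes spread to -1.76 and 1.70.

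Fibroblast and mesenchyme markers were higher in replicate 2 by scaled counts, and so were most markers of several other cell types. Of all genes with a mean count of at least 10, 51.4% were higher there. The share detected was 57.3% of all protein-coding genes. Of 12 fibroblast and mesenchyme markers that are not collagens, 10 were detected, all 12 were higher in replicate 2, and the median log2 ratio was 0.29. The summed TPM of the 12 was 453.85 and 513.71, of which Thy1, also a gene of thymocytes, gave 189.25 and 198.24. The proteoglycan Dcn had 67.92 and 79.85 TPM, and Postn, a matrix protein, 46.54 and 62.11 TPM. Endothelial markers, all 8 detected, had a summed TPM of 99.3 and 90.08, with 3 of 8 higher in replicate 2 and a median of -0.17. Smooth muscle and pericyte markers had a summed TPM of 54.77 and 136.4, with 7 of 8 higher in replicate 2 and a median of 0.63. Elastin (Eln), at 9.15 and 71.39 TPM, and Cnn1, at 49 and 110 counts, were the only markers of that list past 2-fold. None of these 3 lists had a marker at 0, and the part of these cell types in the collagen difference was not tested. Of the other lists, thymic epithelium, which marks the labelled tissue, had 10 of 10 markers detected at a summed TPM of 2377.3 and 2374.3, of which Krt8, Ccl25 and Krt17 gave most. By scaled counts 8 of its 10 markers were higher in replicate 2 (list median 0.08), with Foxn1 at 0.61 and Psmb11 at 0.56. Skeletal muscle had 5 of 7 detected at 63.76 and 77.21 TPM, adipose tissue 2 of 7 at 284.74 and 190.9 TPM (259.05 and 188.76 of it from Fabp4, which other cells also express), Schwann cells 2 of 5 at 42.2 and 43.75 TPM and bone 1 of 6 at 2.81 and 2.39 TPM. All 7 skeletal muscle markers were higher in replicate 2. The adipose markers Car3 (849 and 44 counts), Adipoq (132 and 22 counts) and Plin1 (26 and 0 counts) were lower there, as were all 6 adipose markers with a mean count of at least 10, at a median of -2.45. The plotted ratio of Plin1 depends on the prior count.

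Enzymes and chaperones of the endoplasmic reticulum modify and fold collagen chains. Of 18 modification and folding genes 16 reached 1 TPM in both libraries, against 57.3% of all protein-coding genes. The list median was 10.7 TPM. Of the 18 genes, 16 were higher in replicate 2, against 51.4% of all genes with a mean count of at least 10, and the median log2 ratio was 0.12. Ppib (263.2 and 295.08 TPM), a prolyl isomerase, and P4hb (213.59 and 247.38 TPM), a subunit of prolyl hydroxylase, were the highest, and both serve other proteins as well. Serpinh1, the collagen chaperone HSP47, had 56.11 and 73.57 TPM, a log2 ratio of 0.44. P3h2, which hydroxylates proline in basement membrane collagens, was below 1 at 0.54 and 0.67 TPM, and Colgalt2, a collagen galactosyltransferase, passed in 1 library only (1.03 and 0.89 TPM).

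Genes that cut propeptides and cross-link fibrils outside the cell had a lower list median, 2.71 TPM. Of the 13, 8 were detected, against 57.3% of all protein-coding genes. Pcolce, an enhancer of propeptide cleavage, had 15.29 and 16.68 TPM, the protease Bmp1 5.13 and 5.64 TPM and the cross-linking oxidase Lox 3.62 and 4.41 TPM. Adamts3, Adamts14, Tll1, Tll2 and Loxl4 were below 1 TPM in both libraries. Above the minimum mean count of 10 lay 11 of the 13 genes, 9 higher in replicate 2 against 51.4% of all genes, and their median log2 ratio was 0.18.

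Of 10 collagen receptors 5 were detected, against 57.3% of all protein-coding genes, and the list median was 1.12 TPM. Itgb1, the shared integrin beta-1 subunit, had 87.69 and 86.73 TPM, the receptor kinase Ddr1 27.4 and 27.55 TPM, and the inhibitory leukocyte receptor Lair1 6.36 and 5.12 TPM. The integrin subunits Itga2, Itga10 and Itga11 and the uptake receptor Mrc2 were below 1 TPM. Gp6, the collagen receptor of platelets, had 0 counts in both libraries, which allows up to 3 in each. Of 10 degradation genes 8 were detected, against the same 57.3%, around a list median of 12.0 TPM. The gelatinase Mmp9 had 40.02 and 44.66 TPM, the inhibitor Timp2 35.66 and 35.89 TPM and the membrane protease Mmp14 28.96 and 28.84 TPM, while Mmp8 and Mmp13 were below 1. At a mean count of at least 10, 5 of 8 receptors and 6 of 10 degradation genes were higher in replicate 2, against 51.4% of all genes. Their median log2 ratios were 0.05 and 0.06. In these 4 lists no gene with a mean count of at least 50 differed over 2-fold between the libraries, against 1.36% of all such genes. The lists held 17, 10, 7 and 7 such genes, too few for this absence to say much.

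**Figure D5:**
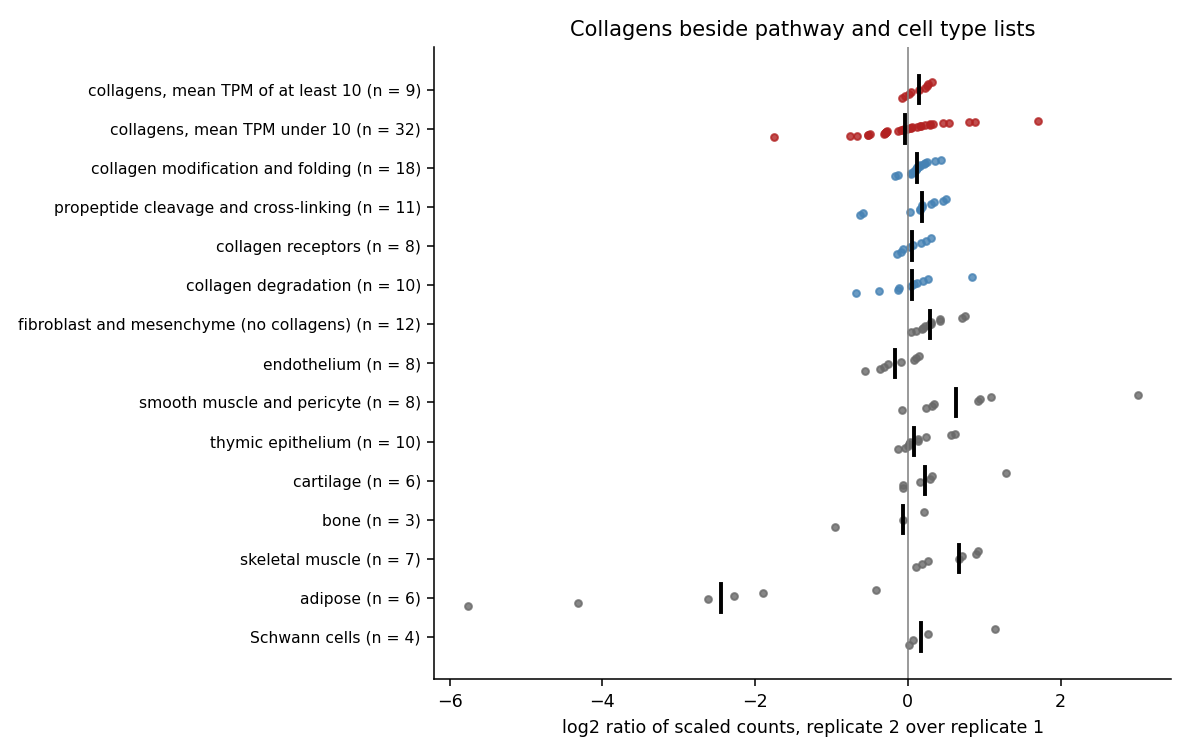
Log2 ratio of scaled counts, replicate 2 over replicate 1, for genes with a mean count of at least 10 in the collagens (red), the pathway lists (blue) and the cell type marker lists (grey). Each point is a gene and the black bar the median of its list, 0.15 for the 9 collagens with a mean TPM of at least 10, -0.03 for the others and 0.29 for the fibroblast markers.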

How the data were processed

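The authors deposited, per library, a gene and a transcript table. Per the file headers, the authors gave expected counts, estimates of reads per gene or transcript that may be fractional and were not normalized. They also deposited TPM and FPKM, both scaled by length and library, and the percent of each gene's TPM held by each transcript. Per the labels the build is mm10, with annotation M4 per the deposited read-me texts. Aligner, quantifier and strand use: not given in the sources used here.

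Members were matched to GENCODE M21 by gene identifier without version; spike-in and number-only rows were left out of gene totals. Expected counts, rounded to whole numbers, were scaled with edgeR's TMM method (4.0.16, R 4.3.3), with a prior count of 0.5, a mean count of at least 10 for ratios and of at least 50 for 2-fold counts. Only the log2 ratio step was tested on simulated counts, with a scaling by the median ratio in place of TMM. The other steps were not simulated. Python 3.11.15, pandas 2.3.3, numpy 2.4.6 and matplotlib 3.10.9 were used. Depth was 39046411 and 41576822 expected counts; counting SEs and the floor of 3 counts cover counting error only.

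Any collagen may be named, and of each other list the 3 highest members, those past 2-fold and those below 1 TPM in both libraries; overlapping genes, Colgalt2, Foxn1, Psmb11, Adipoq and Plin1 were named after their values were seen. Sequences are of 5 genes that lead their class or form a head-to-head pair; coding sequence stands in for protein. The members and lists were chosen with earlier results of these data known. Alternatives changed the threshold, unit, filter, pseudocount and scaling (DESeq2 1.42.0, spike-ins, total counts) and used each library alone. Levels per longest transcript and ratios over members with a mean TPM of at least 10 were added after seeing the data. No test was possible with 1 group.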

Additional observations from a re-analysis of the deposited data

How the results depend on the processing

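No paired analysis was possible because there is 1 group and no contrast. Of 104 recomputed values 70 were labelled unchanged and 2 reversed. Unchanged meant within the SD between libraries, within 1.5 times for counts of genes, or within a small fixed limit for the family median log2 ratio. For the TPM share, chain ratios and transcript shares, the main value is the mean of both libraries. A value from 1 library then always lies within the SD, so the 70 do not measure stability. The family median log2 ratio of 0.02 became -0.0332 with log2(TPM + 0.5) and -0.00304 with total counts. It was 0.0331 with DESeq2 size factors, 0.0416 without a filter, 0.12 at a mean count of at least 100, 0.15 for members with a mean TPM of at least 10 and 0.70 with spike-ins. The count higher in replicate 2 was 22 of 41, where 51.4% of all genes were higher. It became 39 of 41 with spike-ins, where 93.4% of all genes were higher. The count was 17 of 41 with log2(TPM + 0.5), 13 of 21 at a mean count of at least 100 and 7 of 9 for the members with a mean TPM of at least 10. The count over 2-fold was 3 with spike-ins and 4 without a filter. All-gene shares for the TPM, minimum-count and 2-fold variants were not computed. With at least 10 counts in both libraries as the rule, 39 genes were detected, and by counts the family held 0.1775% of protein-coding RNA. The share of all protein-coding genes detected by this count rule was not computed. With genes under 0.1 TPM left out, class medians were 3.705 TPM for fibrillar, 21.98 for basement membrane and 0.5125 for anchoring and other genes. In FPKM the medians were 1.17 for fibrillar, 0.62 for basement membrane, 1.943 for beaded-filament, 0.78 for fibril-associated, 12.06 for multiplexin, 0.2775 for transmembrane, 0.18 for hexagonal and 0.145 for anchoring and other genes. By counts, chain ratios were 1.353 for Col1a1 to Col1a2, 2.009 for Col3a1 to Col1a1, 1.901 for Col4a1 to Col4a2 and 13.63 for Col4a5 to Col4a6. Per longest transcript they were 2.144 for Col3a1 to Col1a1, 1.889 for Col6a1 to Col6a2 and 15.26 for Col6a1 to Col6a3. From each library alone the fibrillar median was 1.6 and 1.51 TPM in replicates 1 and 2 and the fibril-associated median 1.01 and 0.92 TPM; with n = 2 this says little, and a ratio of libraries cannot be had from 1. The causes were not tested. Depth limits the genes with few counts, such as Col28a1, Col24a1 and Col4a4.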

Other observations

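Outside the family, 20 protein-coding genes held an uninterrupted run of at least 20 glycine-codon triplets, 19 of which were measured and 13 detected. The share detected among all protein-coding genes was 57.3%. The complement gene C1qb had 102.14 and 109.76 TPM with a run of 29 triplets, and Colq, which anchors acetylcholinesterase, had 77.29 and 75.78 TPM with a run of 59. Emid1, an extracellular matrix gene, had 42.01 and 38.2 TPM with a run of 27. These 3 stood above Col4a2 (22.92 and 21.05 TPM), and the scavenger receptor Marco, with the longest run of the 20 at 81 triplets, was at 0.32 and 0.52 TPM. The genes were chosen after their values were seen.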
